A study of Mus musculus with 36 samples.

Results

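The proteasome genes of the mouse were followed through endotoxin shock and genipin treatment in brain, heart, kidney and liver. Members were the genes whose symbol in the array annotation begins with Psma, Psmb, Psmc, Psmd, Psme, Psmf or Psmg and a digit, and each was read from its probe with the highest mean intensity. The rule found 42 genes, on 49 probes, among the 12394 genes with a named probe. Psme3ip1, an interactor of Psme3, is annotated under a clone name (2310065K24Rik) and so was no member. They comprised 5 inducible genes (Psmb8, Psmb9, Psmb10, Psme1 and Psme2), 27 constitutive subunits of the 20S core and 19S cap, and 10 others. The others were the activators Psme3 and Psme4, the inhibitor Psmf1, the assembly chaperones Psmg1, Psmg2, Psmg3, Psmd5, Psmd9 and Psmd10, and Psmc3ip. Psmc3ip follows the symbol rule only, since it encodes a partner of the meiotic recombinases. Psma5, Psmb3, Psmc4, Psmd2, Psma8, Psmb11 and Psmg4 were not analysed here.

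The series asks how genipin, an aglycone from gardenia fruit, acts on the response to bacterial lipopolysaccharide (LPS). LPS+Genipin mice received LPS into the peritoneum, then genipin 10 min later. LPS mice received 4 mg/kg LPS alone, and Mock mice were untreated. All were female luciferase-transgenic FVB mice aged 6 to 8 weeks, and the challenged mice were killed 4 h later. The design describes 25 mice in 5 groups of 5 with genipin at 1, 10 or 100 mg/kg; the labels do not say which of these doses the array samples received, nor which promoter drives the transgene. There were 36 arrays, 3 for each of the 3 treatments in each tissue. Whether the 3 arrays of a group come from separate mice is not stated, so p-values measure the spread between arrays only.

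The 20S proteasome is a barrel of stacked alpha and beta rings in which Psmb5, Psmb6 and Psmb7 carry the cutting sites, and the 19S cap of ATPases and non-ATPase subunits binds and unfolds ubiquitinated proteins. Interferon-gamma and other inflammatory cytokines induce Psmb8, Psmb9 and Psmb10, which take the places of Psmb5, Psmb6 and Psmb7 in newly built immunoproteasomes. They also induce Psme1 and Psme2, the alpha and beta chains of the PA28 activator, and the peptides these particles cut are carried by the TAP transporter to MHC class I molecules. Psmb8 and Psmb9 lie beside the TAP genes in the MHC region of chromosome 17, and many constitutive subunit genes are known targets of the transcription factor NRF1 (Nfe2l1).

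The 250 bases before the start in the RefSeq promoter table are shown for the inducible catalytic genes and for Psmb5 and Psmb6, since the comparison of induced with constitutive genes turns on them. They are from RefSeq, assembly GRCm38.p6, 5′ to 3′ on the strand of the gene. Capitals mark a match to a searched motif.
Psmb8 (chr17:34197945-34198194, plus strand): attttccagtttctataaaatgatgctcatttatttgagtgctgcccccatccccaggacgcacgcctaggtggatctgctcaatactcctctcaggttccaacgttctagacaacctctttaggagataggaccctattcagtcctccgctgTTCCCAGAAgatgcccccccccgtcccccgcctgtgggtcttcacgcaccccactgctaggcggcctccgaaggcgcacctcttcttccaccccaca
Psmb9 (chr17:34187331-34187580, minus strand): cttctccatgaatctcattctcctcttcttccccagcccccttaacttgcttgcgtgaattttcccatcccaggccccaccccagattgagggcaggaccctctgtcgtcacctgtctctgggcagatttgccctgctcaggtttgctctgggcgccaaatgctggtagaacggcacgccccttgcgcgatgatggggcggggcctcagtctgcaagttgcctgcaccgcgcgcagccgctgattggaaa
Psmb10 (chr8:105938393-105938642, minus strand): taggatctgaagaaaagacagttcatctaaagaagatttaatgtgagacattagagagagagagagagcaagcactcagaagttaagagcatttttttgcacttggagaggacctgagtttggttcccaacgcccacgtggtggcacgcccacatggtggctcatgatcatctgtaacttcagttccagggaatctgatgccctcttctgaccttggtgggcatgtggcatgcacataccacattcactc
Psmb5 (chr14:54617996-54618245, minus strand): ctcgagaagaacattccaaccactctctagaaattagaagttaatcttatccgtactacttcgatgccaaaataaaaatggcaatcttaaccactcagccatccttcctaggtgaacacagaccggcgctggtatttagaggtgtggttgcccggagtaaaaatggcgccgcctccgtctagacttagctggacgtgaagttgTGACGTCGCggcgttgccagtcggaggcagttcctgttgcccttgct
Psmb6 (chr11:70525107-70525356, plus strand): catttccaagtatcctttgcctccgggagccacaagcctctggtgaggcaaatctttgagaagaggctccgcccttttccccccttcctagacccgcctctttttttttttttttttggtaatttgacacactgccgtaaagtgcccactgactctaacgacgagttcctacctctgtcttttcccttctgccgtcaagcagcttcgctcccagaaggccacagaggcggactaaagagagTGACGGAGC
The RefSeq promoter table held 35 of the 42 members. Windows of 300 bases, 250 before and 50 after the start, were searched on both strands for 4 motifs. The interferon-stimulated response element core (GAAA, any 2 bases, GAAA) was present in 3.44% of all 32851 promoters and in 3 members (Psmd4, Psmd9 and Psme1). The interferon-gamma activated site TTCNNNGAA was in 8.30% of promoters and in Psmb8 and Psmg1, and the kappaB motif (GGGA, any base, TTTCC) in 0.411% of promoters and in 0 members. The antioxidant response element core TGACNNNGC was in 12.4% of promoters and in 6 members (Psmb5, Psmb6, Psmc6, Psmd12, Psmd9 and Psme4). The capitals in Psmb8 are the activated site at chr17:34198098-34198106, bases -97 to -89. Those in Psmb5 (chr14:54618034-54618042, bases -47 to -39) and Psmb6 (chr11:70525348-70525356, bases -9 to -1) are the antioxidant core, with bases counted from the start in the promoter table. RefSeq's gene span of Psmb6 begins at 70525324, before that start, so the core of Psmb6 lies inside the span. The windows of Psmb9 and Psmb10 hold 0 of the 4 motifs. Psme1 has the response element core after its start, read on the gene strand as TTTCGCTTTC at chr14:55578503-55578512. A match is a description of letters, not of binding.

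Values below are log2 intensities of the deposited normalised table, and a member was called where the adjusted p of limma over all genes of its tissue was under 0.05. Probes bind with different strength, so levels are compared between arrays and not between genes. The summed markers of the labelled tissue were high in each (4 of 6 neuronal markers measured in brain, at 17.43 to 17.60; 5 of 6 cardiomyocyte markers in heart, 18.30 to 18.32; 6 of 6 proximal tubule markers in kidney, 17.88 to 18.12; 5 of 6 hepatocyte markers in liver, 18.07 to 18.16). Arrays of one group correlated at 0.985 to 0.998. In these bulk tissues a smaller share of cells and less RNA per cell cannot be told apart. Summed skeletal muscle markers in brain (4 of 6 measured) stood at 11.872 to 11.997 in LPS+Genipin, 11.74 to 11.85 in LPS and 16.78 to 16.86 in Mock arrays. Summed adipocyte markers in heart (2 of 5 measured) stood at 10.71 to 10.79, 16.12 to 16.28 and 10.72 to 10.82 in the same order. Summed hepatocyte markers in brain (3 of 6 measured) stood at 16.036 to 16.044 in LPS+Genipin, 11.93 to 12.27 in LPS and 15.996 to 16.009 in Mock arrays. Single markers differed from that sum: 2 were called higher and 1 lower in LPS than in Mock brains (-4.46 to 2.02). In kidney, hepatocyte markers (3 of 6) stood at 12.93 to 13.15, 11.57 to 11.74 and 10.58 to 10.67 in that order, skeletal muscle markers (2 of 6) at 11.85 to 11.92, 9.88 to 10.03 and 9.55 to 9.82, and adipocyte markers (3 of 5) at 15.625 to 15.84, 14.96 to 15.17 and 14.64 to 14.72. Of the 2 muscle markers in kidney, 1 was called higher and 1 lower in LPS than in Mock (-0.32 to 0.92). The part of all these markers in the brain, heart and kidney results was not tested.

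LPS raised the 3 inducible catalytic subunits together in heart, kidney and liver. In brain it raised Psmb8 and Psmb9 without a call for Psmb10. LPS+Genipin tissues had lower levels than LPS tissues at each of these 11 calls, and the kidney held the largest differences among the 4 tissues. In the plot of single arrays, the LPS arrays stand apart from both other groups for Psmb8 and Psmb9 in every tissue.

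**Figure D1:**
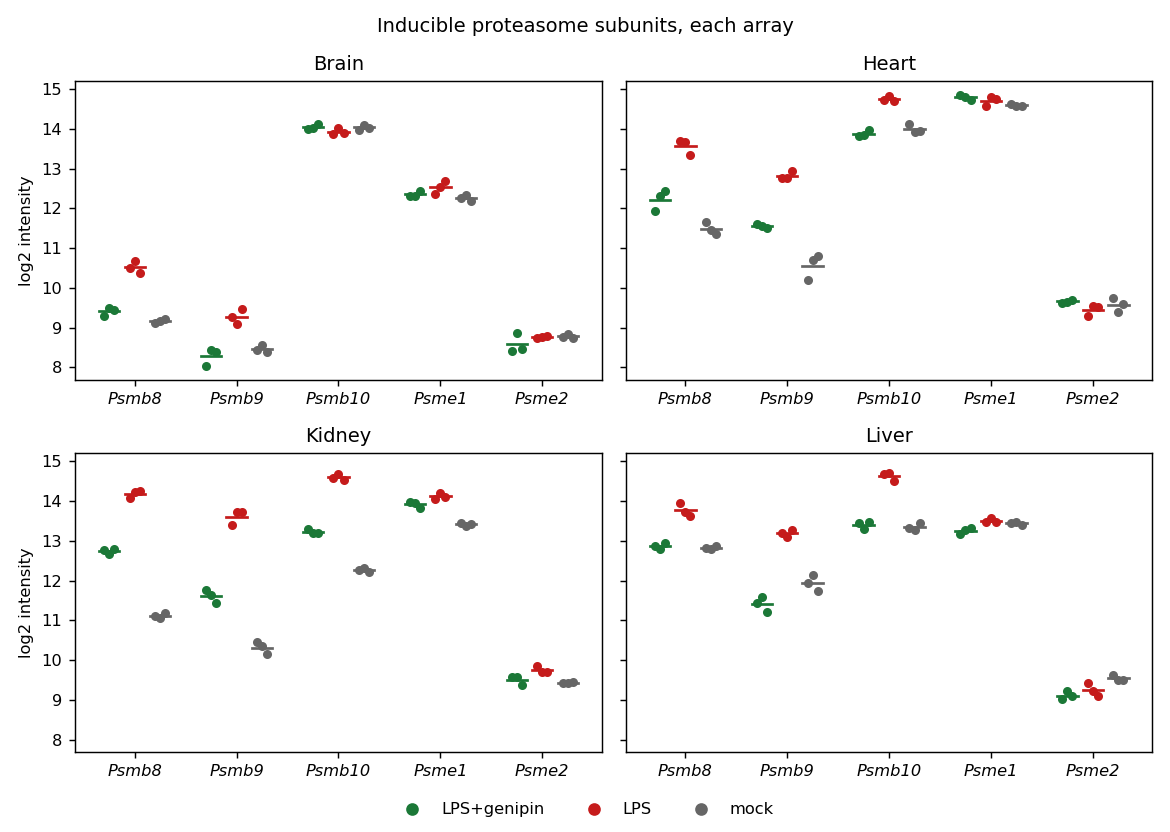
Log2 intensity of Psmb8, Psmb9, Psmb10, Psme1 and Psme2 on each of the 36 arrays, 1 panel per tissue, with LPS+Genipin, LPS and Mock from left to right; dots are arrays and lines are means of 3. Psmb8 in kidney stands at 14.08 to 14.24 in LPS arrays, above 12.66 to 12.79 in LPS+Genipin and 11.07 to 11.18 in Mock arrays.

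Psmb8 (chromosome 17, 34198195 to 34201454) encodes the inducible chymotrypsin-like subunit, the counterpart of Psmb5. In kidney it measured 12.77, 12.66 and 12.79 in LPS+Genipin arrays, 14.08, 14.24 and 14.24 in LPS arrays, and 11.11, 11.07 and 11.18 in Mock arrays. The 3 groups did not overlap, with LPS+Genipin between the other two. LPS was 8.41-fold above Mock (log2 difference 3.07 ± 0.06 SE, limma adjusted p = 4.41e-09), and LPS+Genipin was 2.73-fold below LPS (-1.45 ± 0.06, adjusted p = 1.51e-06) and 3.08-fold above Mock (1.62 ± 0.06, adjusted p = 3.99e-07).

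In heart, Psmb8 measured 11.93, 12.31 and 12.43 in LPS+Genipin, 13.71, 13.66 and 13.35 in LPS and 11.67, 11.45 and 11.36 in Mock arrays. The groups again did not overlap. LPS was 4.24-fold above Mock (2.08 ± 0.15, limma adjusted p = 1.6e-05), and LPS+Genipin was 2.55-fold below LPS (-1.35 ± 0.15, adjusted p = 0.00026) and 1.66-fold above Mock (0.73 ± 0.15, adjusted p = 0.013). The last call was lost without LPS+Genipin heart replicate 2, at 0.69. In liver it measured 12.88, 12.80 and 12.95 in LPS+Genipin, 13.95, 13.73 and 13.63 in LPS and 12.81, 12.80 and 12.87 in Mock arrays. Here the LPS+Genipin and Mock arrays overlapped, and both lay below all LPS arrays. LPS was 1.92-fold above Mock (0.94 ± 0.08, adjusted p = 2.59e-05), and LPS+Genipin was 1.86-fold below LPS (-0.89 ± 0.08, adjusted p = 7.73e-05). In brain the arrays held 9.29, 9.51 and 9.46 in LPS+Genipin, 10.50, 10.67 and 10.38 in LPS and 9.11, 9.18 and 9.21 in Mock. LPS was 2.55-fold above Mock (1.35 ± 0.09, adjusted p = 2.33e-05), and LPS+Genipin was 2.14-fold below LPS (-1.10 ± 0.09, adjusted p = 0.000105). A second Psmb8 probe, measured outside brain, gave LPS differences of 2.17 in heart, 2.95 in kidney and 0.91 in liver.

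Psmb9 (chromosome 17, 34182030 to 34187330) encodes the inducible counterpart of Psmb6. In kidney it measured 11.76, 11.63 and 11.43 in LPS+Genipin arrays, 13.39, 13.71 and 13.72 in LPS arrays and 10.45, 10.35 and 10.15 in Mock arrays. The groups were apart, in the same order as for Psmb8. This was the largest member difference of the study: LPS was 9.82-fold above Mock (3.30 ± 0.13, limma adjusted p = 2.46e-07), and LPS+Genipin was 4.01-fold below LPS (-2.00 ± 0.13, adjusted p = 9.45e-06) and 2.45-fold above Mock (1.29 ± 0.13, adjusted p = 0.00011). In heart the arrays held 11.60, 11.55 and 11.51 in LPS+Genipin, 12.78, 12.78 and 12.93 in LPS and 10.20, 10.70 and 10.80 in Mock. LPS was 4.80-fold above Mock (2.26 ± 0.14, adjusted p = 6.4e-06), and LPS+Genipin was 2.43-fold below LPS (-1.28 ± 0.14, adjusted p = 0.000242).

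In liver the LPS+Genipin arrays held the lowest Psmb9 levels. They measured 11.42, 11.60 and 11.20, against 13.20, 13.10 and 13.26 in LPS and 11.93, 12.14 and 11.73 in Mock arrays. All LPS+Genipin arrays were therefore below all Mock arrays. LPS was 2.38-fold above Mock (1.25 ± 0.13, limma adjusted p = 6.13e-05), while LPS+Genipin was 3.43-fold below LPS (-1.78 ± 0.13, adjusted p = 2.04e-05) and 1.44-fold below Mock (-0.53 ± 0.13, adjusted p = 0.0076). Brain had low Psmb9 levels, at 8.04, 8.44 and 8.38 in LPS+Genipin, 9.26, 9.10 and 9.46 in LPS and 8.43, 8.56 and 8.39 in Mock arrays. The first of these LPS+Genipin arrays was at the floor of 8.04 set for dim probes. LPS was 1.76-fold above Mock (0.81 ± 0.13, adjusted p = 0.00228), and LPS+Genipin was 1.98-fold below LPS (-0.99 ± 0.13, adjusted p = 0.00111).

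Psmb10 (chromosome 8, 105935728 to 105938392), the inducible counterpart of Psmb7, measured 13.29, 13.20 and 13.19 in LPS+Genipin kidneys, 14.58, 14.68 and 14.54 in LPS kidneys and 12.27, 12.32 and 12.21 in Mock kidneys. LPS was 5.04-fold above Mock (2.33 ± 0.05, limma adjusted p = 9.26e-09), and LPS+Genipin was 2.59-fold below LPS (-1.37 ± 0.05, adjusted p = 9.04e-07) and 1.95-fold above Mock (0.96 ± 0.05, adjusted p = 3.72e-06). The 3 groups did not overlap in kidney. In liver the arrays held 13.46, 13.29 and 13.46 in LPS+Genipin, 14.67, 14.69 and 14.50 in LPS and 13.31, 13.26 and 13.46 in Mock. LPS was 2.43-fold above Mock (1.28 ± 0.08, adjusted p = 3.69e-06) and LPS+Genipin was 2.33-fold below LPS (-1.22 ± 0.08, adjusted p = 1.34e-05). LPS+Genipin and Mock livers overlapped (difference 0.06), although a second probe gave a called difference of 0.28. In heart the values were 13.81, 13.86 and 13.98 in LPS+Genipin, 14.74, 14.82 and 14.69 in LPS and 14.13, 13.92 and 13.95 in Mock arrays. LPS was 1.69-fold above Mock (0.75 ± 0.08, adjusted p = 0.000105), and LPS+Genipin was 1.83-fold below LPS (-0.87 ± 0.08, adjusted p = 6.55e-05). Brain Psmb10 gave 13.99, 14.02 and 14.11 in LPS+Genipin, 13.86, 14.03 and 13.91 in LPS and 13.98, 14.11 and 14.02 in Mock arrays, and these overlapped in all 3 comparisons (LPS against Mock -0.10 ± 0.06, adjusted p = 0.242).

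The PA28 chains moved less. Psme1 (chromosome 14, 55578494 to 55581527) measured 13.97, 13.96 and 13.82 in LPS+Genipin kidneys, 14.05, 14.21 and 14.11 in LPS kidneys and 13.44, 13.38 and 13.42 in Mock kidneys. LPS was 1.63-fold above Mock (0.71 ± 0.06, limma adjusted p = 1.86e-05), and LPS+Genipin was slightly below LPS (-0.21 ± 0.06, adjusted p = 0.0165), with the groups not overlapping; that call was lost without LPS kidney replicate 2 (-0.16). In liver, LPS against Mock was not called (0.07 ± 0.06, adjusted p = 0.295). LPS+Genipin livers, at 13.16, 13.28 and 13.33, lay below LPS livers, at 13.48, 13.57 and 13.48 (-0.25 ± 0.06, adjusted p = 0.00672), but a second probe gave -0.14 without a call and, against Mock, 0.20 in place of -0.18. In brain LPS was 0.27 ± 0.08 above Mock (adjusted p = 0.0388), a call that 7 of 9 fits without 1 array did not make (0.19 to 0.30) and whose sign turned with the second probe (-0.0526). In heart the differences for Psme1 were 0.11 for LPS against Mock and 0.09 for LPS+Genipin against LPS, neither called.

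Psme2 (chromosome 14, 55587440 to 55591101) was called with LPS in opposite directions in kidney and liver. Its 1 probe was dim, with a mean intensity of 644 against the floor of 263. In kidney it measured 9.58, 9.57 and 9.38 in LPS+Genipin, 9.85, 9.69 and 9.71 in LPS and 9.42, 9.41 and 9.45 in Mock arrays, so that LPS was 1.25-fold above Mock (0.32 ± 0.06, limma adjusted p = 0.00254) and LPS+Genipin was below LPS (-0.24 ± 0.06, adjusted p = 0.0132). In liver it measured 9.02, 9.21 and 9.09 in LPS+Genipin, 9.43, 9.22 and 9.09 in LPS and 9.62, 9.50 and 9.49 in Mock arrays. LPS livers were below Mock (-0.29 ± 0.09, adjusted p = 0.0251; not called without Mock liver replicate 1, at -0.25, LPS liver replicate 2, at -0.27, or LPS liver replicate 3, at -0.21), and LPS+Genipin livers were 1.35-fold below Mock (-0.43 ± 0.09, adjusted p = 0.00443). LPS+Genipin and LPS livers overlapped. Brain and heart gave no Psme2 call in any comparison.

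The constitutive counterparts gave smaller LPS differences than their inducible partners, in both directions, except in brain for Psmb7 (0.25) against Psmb10 (-0.10). Psmb5, the chymotrypsin-like subunit, fell with LPS in heart (-0.33 ± 0.07, limma adjusted p = 0.00513) and liver (-0.16 ± 0.05, adjusted p = 0.0275), though cyclic loess between arrays ended both calls (-0.19 and -0.06), and the liver call was lost without Mock replicate 1 or 2 or LPS replicate 2 or 3 (-0.15 to -0.16). Psmb5 measured 12.99, 13.01 and 12.84 in LPS+Genipin livers, 12.63, 12.59 and 12.59 in LPS livers and 12.78, 12.79 and 12.73 in Mock livers. The LPS+Genipin livers were the highest group (0.35 ± 0.05 against LPS, adjusted p = 0.0012). In brain the LPS+Genipin arrays, at 12.91, 13.11 and 13.34, lay below the LPS arrays, at 13.52, 13.59 and 13.63 (-0.46 ± 0.10, adjusted p = 0.0121).

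Psmb7, the trypsin-like subunit, measured 14.34, 14.34 and 14.42 in LPS+Genipin hearts, 13.59, 13.54 and 13.56 in LPS hearts and 14.21, 14.19 and 14.16 in Mock hearts. LPS was 1.53-fold below Mock (-0.62 ± 0.05, limma adjusted p = 2.51e-05), and LPS+Genipin was 1.74-fold above LPS (0.80 ± 0.05, adjusted p = 9.75e-06). Liver gave the same order, with 14.10, 14.14 and 14.12 in LPS+Genipin, 13.67, 13.61 and 13.49 in LPS and 14.04, 14.03 and 14.05 in Mock arrays. LPS livers were 1.37-fold below Mock (-0.45 ± 0.05, adjusted p = 0.000117) and LPS+Genipin livers 1.44-fold above LPS (0.53 ± 0.05, adjusted p = 9.76e-05). Brain ran the other way, at 14.01, 14.18 and 14.13 in LPS+Genipin, 14.38, 14.33 and 14.42 in LPS and 14.11, 14.14 and 14.13 in Mock arrays (LPS against Mock 0.25 ± 0.05, adjusted p = 0.00991). Psmb6, the caspase-like subunit, was called in 1 of its 12 comparisons, LPS+Genipin against LPS in liver (0.21 ± 0.07, adjusted p = 0.0392), where the arrays held 15.18, 15.18 and 15.15 in LPS+Genipin and 14.95, 15.04 and 14.88 in LPS. Cyclic loess and 6 of 9 fits without 1 array did not make that call (0.18, and 0.17 to 0.22).

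The log2 ratio of each inducible subunit to its counterpart, set to a mean of 0 in Mock, describes the paired shift as mean ± SD of 3 arrays. Psmb8 over Psmb5 stood at 1.68 ± 0.20 in LPS+Genipin and 3.25 ± 0.01 in LPS kidneys, 0.74 ± 0.34 and 2.41 ± 0.19 in the hearts, -0.13 ± 0.16 and 1.11 ± 0.14 in the livers, and 0.49 ± 0.16 and 1.13 ± 0.17 in the brains. Psmb9 over Psmb6 stood at 1.23 ± 0.25 in LPS+Genipin and 3.37 ± 0.16 in LPS kidneys, and at -0.56 ± 0.18 and 1.43 ± 0.16 in the livers. Psmb10 over Psmb7 stood at 0.81 ± 0.11 in LPS+Genipin and 2.46 ± 0.06 in LPS kidneys, at -0.30 ± 0.04 and 1.37 ± 0.08 in the hearts, at -0.02 ± 0.12 and 1.73 ± 0.04 in the livers, and at 0.02 ± 0.09 and -0.35 ± 0.13 in the brains. Brain was thus the tissue in which the last ratio was lower in LPS than in Mock arrays.

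**Figure D2:**
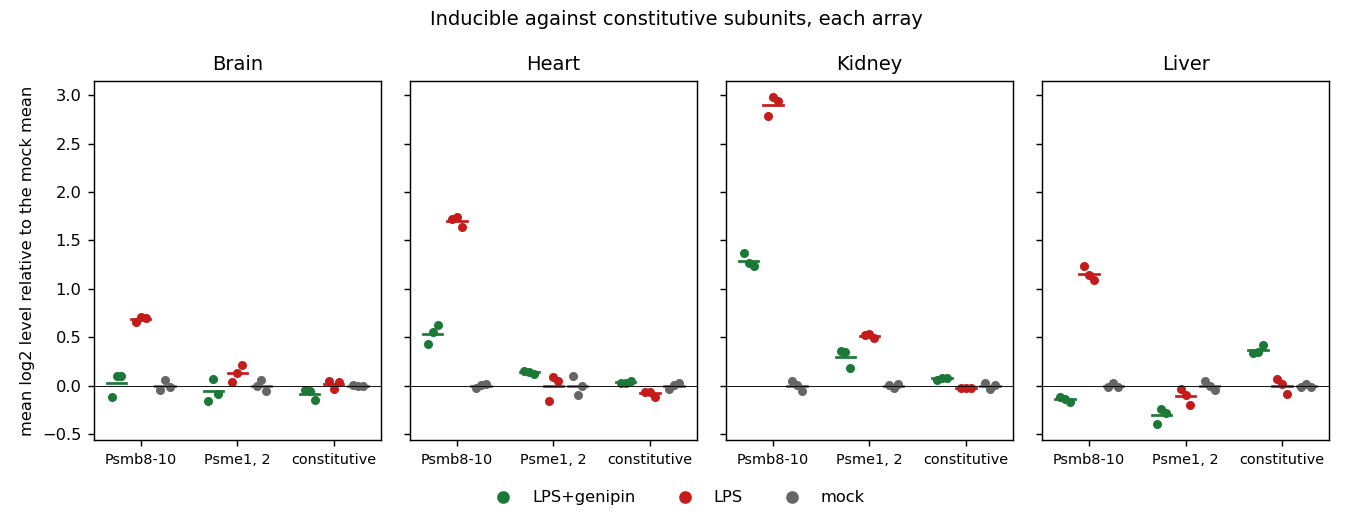
Mean log2 level relative to the Mock mean on each array for the 3 inducible beta subunits, the 2 PA28 chains and the 27 constitutive subunits, in 4 tissues, with LPS+Genipin left of LPS and Mock. The constitutive set lies between -0.15 (LPS+Genipin brain replicate 3) and 0.08 in brain, heart and kidney, and between 0.34 and 0.42 in LPS+Genipin livers.

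Averaged over the set and relative to Mock, the 3 inducible beta subunits stood at 1.29 ± 0.07 in LPS+Genipin and 2.90 ± 0.10 in LPS kidneys, at 0.53 ± 0.10 and 1.70 ± 0.05 in the hearts, at -0.14 ± 0.02 and 1.16 ± 0.07 in the livers, and at 0.03 ± 0.12 and 0.69 ± 0.03 in the brains (SD, n = 3 each). The 27 constitutive subunits stood at 0.08 ± 0.01 in LPS+Genipin kidneys and -0.02 in LPS kidneys, at 0.03 ± 0.01 and -0.08 ± 0.03 in the hearts, and at -0.08 ± 0.06 and 0.02 ± 0.04 in the brains. In livers they stood at 0.37 ± 0.04 in LPS+Genipin arrays, against 0.00 ± 0.07 in LPS arrays. The brain value of LPS+Genipin rests in part on replicate 3, in which Psmd12 read 9.99, and was -0.0516 without it. No p is given for these set means, since the members were chosen.

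Counted over all members, LPS against Mock called 11 of 42 in brain, where 33.9% of all genes were called, 13 of 41 in heart (background 47.4%), 21 of 41 in kidney (64.5%) and 20 of 42 in liver (66.5%). The members' shares were thus below the background in each tissue. Of the 5 inducible genes 3 were higher in brain (background of higher calls 16.4%), 3 in heart (18.3%), 5 in kidney (25.3%) and 3 in liver (29.3%), with 1 lower in liver (37.2%). Of the 27 constitutive subunits 5 were higher and 1 lower in brain (background of lower calls 17.6%), 1 and 5 in heart (29.1%), 5 and 6 in kidney (39.2%), and 6 and 5 in liver. The splits in heart, kidney and liver depended on the scaling: with cyclic loess they were 5 higher and 2 lower, 8 and 0, and 9 and 1. They also depended on single arrays: without 1 array there were 2 to 6 higher and 0 to 2 lower in brain, 0 to 2 and 4 to 6 in heart, 2 to 4 and 2 to 7 in kidney, and 4 to 5 and 1 to 5 in liver. The median constitutive difference was -0.07 in heart, -0.08 in kidney and 0.01 in liver, against -0.06, -0.09 and -0.03 over all genes.

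**Figure D3:**
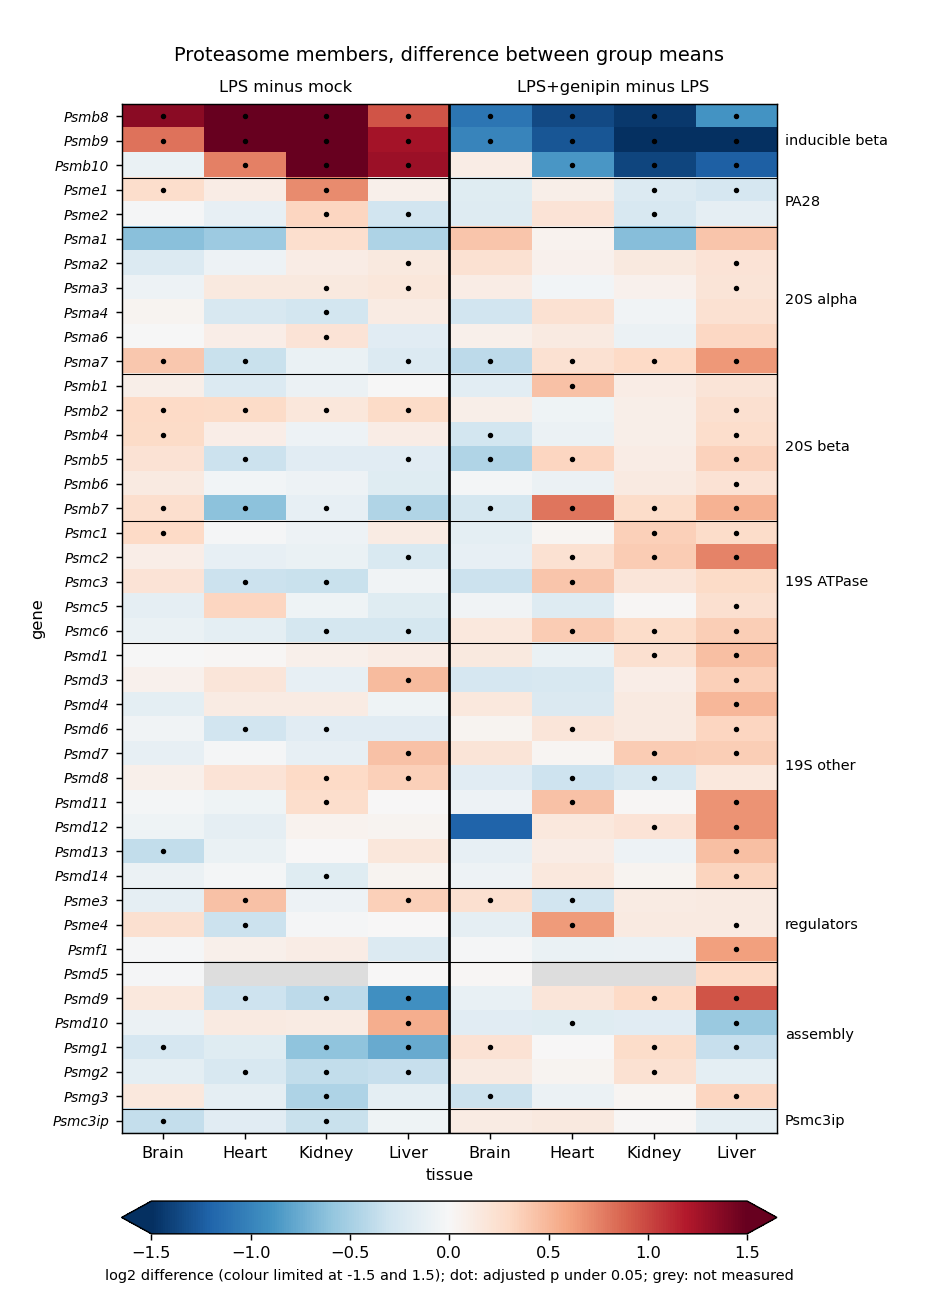
Log2 differences of the 42 members in each tissue for LPS+Genipin against LPS and for LPS against Mock, as a colour scale limited to 1.5 in either direction, with rows grouped by role, a dot where the limma adjusted p is under 0.05 and grey where Psmd5 was not measured. The inducible beta rows are opposite in colour between both comparisons, and the liver column of LPS+Genipin against LPS holds 21 higher constitutive calls.

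Among single constitutive members called with LPS, Psma7, an alpha ring subunit, was higher in brain (0.41 ± 0.06, limma adjusted p = 0.00158) and lower in heart (-0.34 ± 0.07, adjusted p = 0.00437) and liver (-0.21 ± 0.06, adjusted p = 0.0207). The liver call was lost with cyclic loess (-0.12) and without Mock liver replicate 1 (-0.17), Mock liver replicate 2 (-0.17) or LPS liver replicate 1 (-0.19). Psmb2, a non-catalytic beta subunit, was higher in all 4 tissues (0.30 ± 0.08 in brain, 0.29 ± 0.07 in liver, 0.28 ± 0.08 in heart and 0.17 ± 0.04 in kidney). Its heart call was lost without Mock heart replicate 2. In liver the 19S subunits Psmd3 and Psmd7 were higher (0.48 ± 0.08 and 0.44 ± 0.06). Psmd3 measured 13.89, 13.82 and 13.83 in LPS livers and 13.42, 13.21 and 13.47 in Mock livers, without overlap.

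Of the assembly chaperones, LPS against Mock called 0 higher and 4 lower of 5 measured in kidney (background of lower calls 39.2%), with Psmd10 at 0.12 without a call, and 1 higher and 3 lower of 6 in liver (37.2%). Psmd5 could not be called in liver, since its LPS and Mock arrays there were all raised to the floor of 8.04. The lower liver calls include Psmd9, whose second probe gave no call. Psmg1, which with Psmg2 starts the alpha ring, measured 11.82, 11.80 and 11.47 in LPS+Genipin livers, 12.08, 12.06 and 11.99 in LPS livers and 12.87, 12.72 and 12.82 in Mock livers. All LPS+Genipin livers were below all LPS livers, and these were below all Mock livers. LPS was 1.69-fold below Mock (-0.76 ± 0.10, limma adjusted p = 0.000207), and LPS+Genipin was below LPS (-0.35 ± 0.10, adjusted p = 0.0168) and 2.15-fold below Mock (-1.10 ± 0.10, adjusted p = 3.04e-05). In kidney Psmg1 held 12.79, 12.70 and 12.89 in LPS+Genipin, 12.53, 12.55 and 12.47 in LPS and 13.16, 13.06 and 13.14 in Mock arrays. There LPS was 1.52-fold below Mock (-0.61 ± 0.06, adjusted p = 3.72e-05) and LPS+Genipin lay between (0.27 ± 0.06 against LPS, adjusted p = 0.00386). Psmg3, which dimerises with a further chaperone, was lower in LPS than in Mock kidneys (-0.46 ± 0.06, adjusted p = 0.000281), and LPS+Genipin kidneys remained below Mock (-0.43 ± 0.06, adjusted p = 0.000797).

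Psmd10 (gankyrin), a chaperone of the 19S base, measured 11.10, 11.23 and 11.14 in LPS+Genipin livers, 11.78, 11.80 and 11.53 in LPS livers and 11.00, 11.25 and 11.22 in Mock livers. It was higher with LPS (0.55 ± 0.09, limma adjusted p = 0.00118) and lower in LPS+Genipin than in LPS (-0.55 ± 0.09, adjusted p = 0.00183). Psmd9, another base chaperone, was 1.89-fold lower in LPS than in Mock livers on its brighter probe (-0.92 ± 0.18, adjusted p = 0.00217), where the 3 LPS arrays spread over 10.61, 10.39 and 9.91. Its second probe gave -0.13 without a call, so the probes disagree. Of the activators, the nuclear PA28-gamma gene Psme3 was higher with LPS in heart (0.44 ± 0.08, adjusted p = 0.00283) and liver (0.36 ± 0.07, adjusted p = 0.0031). Psme4, which encodes the activator PA200, measured 13.97, 13.91 and 13.87 in LPS+Genipin hearts, 13.10, 13.32 and 13.41 in LPS hearts and 13.74, 13.64 and 13.43 in Mock hearts. LPS+Genipin was 1.56-fold above LPS there (0.64 ± 0.10, adjusted p = 0.00169). The lower Psme4 of LPS against Mock hearts (-0.33 ± 0.10, adjusted p = 0.0311) was lost with cyclic loess (-0.20) and in 4 of 9 fits without 1 array (-0.24 to -0.35).

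LPS+Genipin against LPS called 9 of 42 members in brain (background 30.2%), 16 of 41 in heart (42.1%), 17 of 41 in kidney (54.9%) and 31 of 42 in liver (54.0%). The liver was the tissue in which the members' share exceeded the background. All calls of the 5 inducible genes were lower, with 2 in brain (background of lower calls 13.8%), 3 in heart (19.9%), 5 in kidney (22.6%) and 4 in liver (24.4%). Of the 27 constitutive subunits 21 were higher and 0 lower in liver (background of higher calls 29.6%), 9 and 1 in heart (22.1%), 8 and 1 in kidney (32.3%), and 0 and 4 in brain (16.4%). The kidney share of higher calls was near its background, with 8 to 9 higher in fits without 1 array. The heart split was 5 higher and 3 lower with cyclic loess, and 5 and 1 without LPS+Genipin heart replicate 2. The median constitutive difference was 0.33 in liver, 0.12 in kidney, 0.11 in heart and -0.08 in brain, against 0.03, 0.04, 0.03 and 0.01 over all genes.

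In liver the rise of constitutive subunits reached every part of the 26S particle. It was called for 3 of 6 alpha ring, 5 of 6 beta ring, 4 of 5 ATPase and 9 of 10 non-ATPase members, and the 6 without a call were Psma1, Psma4, Psma6, Psmb1, Psmc3 and Psmd8. With cyclic loess 18 were higher and 0 lower (median 0.28), and fits without 1 array called 16 to 21 higher and 0 lower. Psmc2, an ATPase of the base, measured 12.81, 12.87 and 13.03 in LPS+Genipin, 12.34, 12.05 and 12.10 in LPS and 12.37, 12.38 and 12.44 in Mock arrays. LPS+Genipin livers lay above both other groups (1.67-fold above LPS, 0.74 ± 0.09, limma adjusted p = 0.000296). Psma7 measured 14.27, 14.36 and 14.33 in LPS+Genipin, 13.64, 13.70 and 13.67 in LPS and 13.94, 13.95 and 13.74 in Mock arrays (1.57-fold above LPS, 0.65 ± 0.06, adjusted p = 9.67e-05). The lid subunit Psmd12 measured 14.09, 14.15 and 14.37 in LPS+Genipin, 13.60, 13.52 and 13.46 in LPS and 13.44, 13.46 and 13.56 in Mock arrays (1.60-fold above LPS, 0.68 ± 0.08, adjusted p = 0.000265). Fitted over all 36 arrays the same Psmd12 difference was not called; 1 LPS+Genipin brain array held 9.99, against 14.02 and 14.11 on the other two.

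Other lid subunits gave similar differences. Psmd11 measured 14.18, 14.19 and 13.95 in LPS+Genipin livers, 13.44, 13.27 and 13.59 in LPS livers and 13.54, 13.62 and 13.12 in Mock livers (1.60-fold above LPS, 0.68 ± 0.14, limma adjusted p = 0.00531). Psmd7 stepped up in both comparisons, with 13.54, 13.66 and 13.66 in LPS+Genipin, 13.21, 13.28 and 13.26 in LPS and 12.80, 12.89 and 12.75 in Mock livers. Psmd3 did likewise, with LPS+Genipin livers at 14.15, 14.16 and 14.30. No 2 of the groups overlapped for either gene. Psmf1, which encodes the PI31 regulator, measured 11.97, 12.05 and 11.82 in LPS+Genipin livers, against 11.56, 11.24 and 11.20 in LPS livers (1.53-fold, 0.62 ± 0.14, adjusted p = 0.0072). Psmd9 was 1.92-fold above LPS (0.94 ± 0.18, adjusted p = 0.00287) on its brighter probe and 0.06, not called, on the second.

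**Figure D4:**
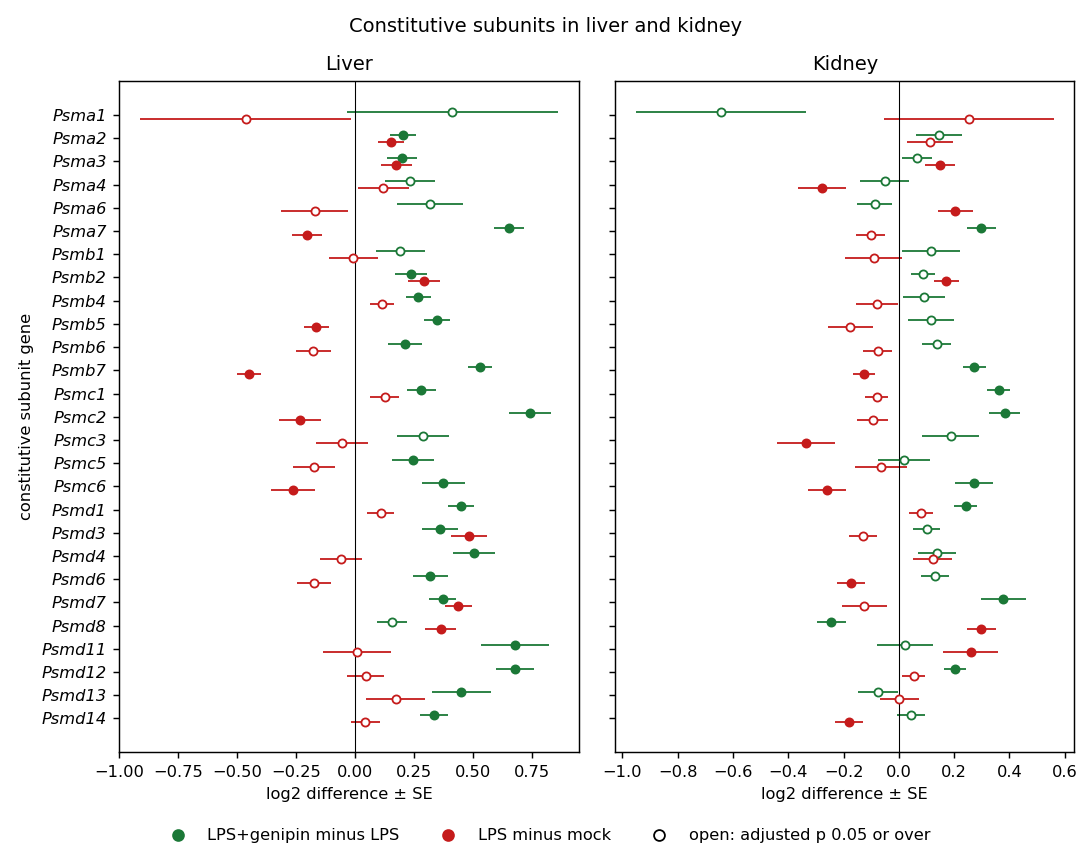
Log2 difference ± SE of the 27 constitutive subunits in liver and kidney, LPS+Genipin against LPS in green and LPS against Mock in red, with open symbols where the limma adjusted p is 0.05 or more. In liver 21 green points are filled and lie above 0; in kidney 8 filled green points lie above 0 and 1 below.

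In kidney the higher constitutive calls of LPS+Genipin against LPS were led by Psmc2 (0.38 ± 0.06, limma adjusted p = 0.000787), Psmd7 (0.38 ± 0.08, adjusted p = 0.00503) and Psmc1 (0.36 ± 0.04, adjusted p = 0.000229). Psmd8, a lid subunit, was the 1 lower call (-0.24 ± 0.05, adjusted p = 0.00549). Psmc6 was called higher (0.27 ± 0.07, adjusted p = 0.0108), but its second probe gave -0.0712. In heart Psmb7 led, followed by Psmb1 (0.44 ± 0.10, adjusted p = 0.00815), Psmd11 (0.43 ± 0.15, adjusted p = 0.0428, not called with cyclic loess at 0.34) and Psmc3 (0.41 ± 0.09, adjusted p = 0.00802).

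LPS+Genipin against Mock called 2 of 42 members in brain (background 14.5%), 3 of 41 in heart (20%), 19 of 41 in kidney (44.6%) and 26 of 42 in liver (60.9%). It shares arrays with both comparisons above. In kidney 4 of the 5 inducible genes were higher (background of higher calls 20.2%), whereas in liver 3 of the 5 were lower (Psmb9, Psme1 and Psme2; background of lower calls 32.4%). The second Psme1 probe turned the sign of the Psme1 difference in liver, and fits without 1 array called 2 to 3 of the 5 lower there. In liver 18 of the 27 constitutive subunits were higher (background 28.5%) and 0 lower, with a median of 0.37 against -0.04 over all genes. The largest of these were Psmd3 (1.79-fold, 0.84 ± 0.08, limma adjusted p = 3.97e-05) and Psmd7 (1.75-fold, 0.81 ± 0.06, adjusted p = 1.01e-05). In heart all 3 calls were higher (background 7.61%), namely Psmb8, Psmb9 and Psmb7. The Psmb7 call (0.18 ± 0.05, limma adjusted p = 0.0354) was lost when any 1 Mock or LPS+Genipin heart array, or LPS heart replicate 1, was left out. In brain Psmb2 was higher (0.40 ± 0.08, adjusted p = 0.0114; background of higher calls 8.92%) and Psmd13 lower (-0.48 ± 0.11, adjusted p = 0.0234; background of lower calls 5.59%).

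The difference between tissues was tested with an F test over all 36 arrays, which compares differences within tissues and not levels between them. The LPS difference varied between tissues for 23 of 41 members (background 77.1%), among them all 5 inducible genes and 12 of 27 constitutive subunits. The LPS+Genipin against LPS difference varied for 31 of 41 members (background 74.5%), among them all 5 inducible genes and 18 of 27 constitutive subunits. For Psmb10 the LPS difference ran from -0.10 in brain to 2.33 in kidney (limma adjusted p = 2.72e-17), and for Psmb8 from 0.94 in liver to 3.07 in kidney (adjusted p = 1.93e-12). Psmb6 was not called in either test (adjusted p = 0.101 and 0.0758).

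Genes around the proteasome were read from 4 lists. Interferon control and peptide handling genes were higher with LPS in 6 of 10 measured in brain, 8 of 10 in heart, 9 of 10 in kidney and 8 of 11 in liver, with 1 lower in liver, where the backgrounds of higher calls were 16.4%, 18.3%, 25.3% and 29.3%. Their medians were 0.50, 0.98, 1.74 and 0.81. In LPS+Genipin against LPS they were lower in 7 of 10, 6 of 10, 10 of 10 and 6 of 11, with 0 higher (backgrounds of lower calls 13.8%, 19.9%, 22.6% and 24.4%). Irf1, the transcription factor that drives Psmb9 and TAP genes, rose with LPS in all 4 tissues, by 3.73 ± 0.07 in kidney, 2.47 ± 0.08 in heart, 2.07 ± 0.08 in brain and 1.04 ± 0.12 in liver. Its differences for LPS+Genipin against LPS were -1.74 ± 0.07, -1.60 ± 0.08, -1.62 ± 0.08 and -0.79 ± 0.12 in the same order of tissues, each called. Tap2, a chain of the peptide transporter, rose by 2.23 ± 0.11 in kidney, 1.81 ± 0.12 in heart, 0.96 ± 0.07 in brain and 0.80 ± 0.06 in liver, and its differences for LPS+Genipin against LPS were -1.29 ± 0.11, -1.12 ± 0.12, -0.74 ± 0.07 and -0.49 ± 0.06. Kidney had the largest LPS difference for both, as it had for Psmb8, Psmb9 and Psmb10.

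Of 6 measured genes that control proteasome supply, 4 were called higher and 0 lower in LPS+Genipin against LPS livers (median 1.05; background of higher calls 29.6%). These were Maff (1.53 ± 0.09), Mafg (1.16 ± 0.14), Nfe2l2 (1.06 ± 0.09), which encodes the stress factor NRF2, and Mafk (1.04 ± 0.07); the small MAF proteins pair with NRF1 and NRF2 on DNA. Nfe2l1 itself was not called there (-0.08 ± 0.05, limma adjusted p = 0.22). In the other tissues this list gave 1 higher and 1 lower in brain (backgrounds 16.4% and 13.8%), 0 and 3 in heart (22.1% and 19.9%), and 1 and 1 in kidney (32.3% and 22.6%). Proteasome-associated genes were higher in 5 of 8 in liver (median 0.41, against the same 29.6%), led by the stress-induced zinc finger gene Zfand2a (3.00 ± 0.06), the scaffold Ecpas (0.74 ± 0.07) and the proteasomal deubiquitinases Usp14 (0.70 ± 0.06) and Uchl5 (0.58 ± 0.11). The maturation factor Pomp was not called in any tissue for either comparison.

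Genes of ubiquitin supply and shuttling were higher in LPS+Genipin against LPS livers in 7 of 8 members (median 0.49; background 29.6%). They included the shuttle Ubqln2 (1.11 ± 0.12), the unfoldase cofactors Ufd1 (0.84 ± 0.08) and Nploc4 (0.67 ± 0.13), and the shuttle Rad23b (0.57 ± 0.09). Kidney had 4 of 8 higher (32.3%), brain 2 higher (16.4%) and 2 lower (13.8%), and heart 0 higher and 1 lower (19.9%). With LPS against Mock, this list was 1 higher and 2 lower in brain (backgrounds 16.4% and 17.6%), 1 and 0 in heart (18.3% and 29.1%), 0 and 3 in kidney (25.3% and 39.2%), and 2 and 3 in liver (29.3% and 37.2%). The ubiquitin-activating enzyme gene Uba6 gave the largest of these, at -1.05 ± 0.05 in LPS against Mock kidneys and 0.74 ± 0.05 in LPS+Genipin against LPS kidneys.

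Markers of blood cells, which themselves carry inducible subunits, moved in the same arrays. Of 10 neutrophil markers, 3 were measured in heart, with summed log2 levels of 14.03 to 14.14 in LPS+Genipin, 15.28 to 15.46 in LPS and 11.16 to 11.28 in Mock. The 2 measured in liver summed to 15.80 to 15.92 in LPS+Genipin, 16.30 to 16.40 in LPS and 11.81 to 11.91 in Mock. The 1 measured in kidney lay at 12.13 to 12.14 in LPS+Genipin, 12.09 to 12.63 in LPS and 7.95 to 8.50 in Mock, and the 4 in brain at 12.06 to 12.08, 11.83 to 12.01 and 10.93 to 10.97. Single neutrophil markers differed from these sums: in heart all 3 were lower in LPS+Genipin than in LPS (-4.04 to -0.71), with 1 not called against Mock (0.38). In brain 2 of 4 were higher and 1 lower in LPS than in Mock (-0.62 to 1.42), and 1 of 4 was lower in LPS+Genipin than in Mock (-0.26). Of 10 macrophage markers, 7 in kidney summed to 13.99 to 14.09 in LPS+Genipin, 13.85 to 13.88 in LPS and 13.66 to 13.74 in Mock, and 8 in liver to 14.24 to 14.31, 13.98 to 14.05 and 14.44 to 14.53. In LPS+Genipin against LPS the single macrophage markers split as 4 higher and 3 lower of 7 in kidney (-1.03 to 1.23). They split as 4 and 1 of 8 in liver (-0.95 to 0.85). The macrophage sums were lower in LPS than in Mock arrays in brain (13.53 to 13.77 against 13.97 to 14.08), heart (14.20 to 14.32 against 14.37 to 14.47) and liver, whereas of the single markers 1 was higher and 4 lower of 7 in brain, 3 and 2 of 8 in heart (median 0.12), and 2 and 5 of 8 in liver. Of 8 endothelial markers, the 7 in heart summed to 15.20 to 15.28 in LPS+Genipin, 15.10 to 15.12 in LPS and 15.49 to 15.63 in Mock arrays. Single markers in heart split as 1 higher and 4 lower in LPS against Mock, and 4 and 1 in LPS+Genipin against LPS. In the same order of groups the sums were 12.89 to 13.08, 12.89 to 13.01 and 13.17 to 13.26 in brain (7 measured). They were 14.47 to 14.56, 14.33 to 14.37 and 14.74 to 14.78 in kidney (7), and 12.50 to 12.64, 12.69 to 12.70 and 13.03 to 13.13 in liver (6). For LPS against Mock, single endothelial markers split as 1 higher and 5 lower in brain, 1 and 4 in kidney, and 2 and 2 in liver. Their median in liver was 0.08, although the liver sums were lower in LPS than in Mock. For LPS+Genipin against LPS they split as 4 higher and 1 lower in brain, 3 and 1 in kidney, and 2 and 4 in liver. Of 9 B and dendritic cell markers, 1 was measured in kidney and 1 in liver, both dim. It was called higher in LPS than in Mock (0.96 and 0.71) and lower in LPS+Genipin than in LPS (-0.99 and -0.68). With LPS, 1 of 3 was lower in brain and 0 of 2 were called in heart. T and NK cell markers were measured in brain (1 of 11, not called with LPS) and heart (2 of 11, 1 higher and 1 lower with LPS). The part of these cells in the levels of the inducible genes was not tested.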

How the data were processed

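Total RNA of 4 tissues was hybridised to 1-colour oligonucleotide arrays, 3 per group. Per the labels the authors deposited 1 table of intensity values, already normalised; array medians are nearly equal within a tissue (2095.54 to 2098.09 in brain) but not between tissues, so tissues appear to have been normalised separately, and the labels name no background correction. The submitters' processing notes name limma, with no version. Of 18183 probes 14817 had 1 gene symbol, giving 12394 genes, and the probe with the highest mean represented a gene. Values under the 5th percentile (263) were raised to it and log2 was taken of the deposited intensity. A gene counted as measured in a tissue where all 9 arrays had a deposited value, and none was imputed. limma 3.58.1 (R 4.3.3) was fitted to the 9 arrays of a tissue with Benjamini-Hochberg adjustment, and an F test over 36 arrays compared tissues. Of 1494 member values 0 reached 60000, while 8 members had a group mean at or above log2 15. Arrays limit precision by their number. On simulated data for LPS against Mock, the fit recovered 97% of 1-log2 changes in kidney, 96% in brain, 89% in heart and 87% in liver, and of 0.5-log2 changes 76%, 62%, 59% and 60% in that order. The simulation changed 100 genes at each size, a far smaller share than was called in these data. Adjusted p depends on that share, so these rates do not give the power of the fits reported here.

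Named members were the 5 inducible genes, their 3 counterparts, activators, chaperones and the largest other calls, and pathway lists named up to 4 called genes per tissue; others named were chosen after their values were seen. The members and lists were chosen with earlier results of these data known. Same-numbered arrays deviated together (all 3 correlations over 0.1) in 1 of 12 pairs of groups, LPS+Genipin and LPS in brain (0.14 to 0.19). That rule cannot show whether arrays were paired in the other pairs of groups, since pairing under other numbers was not tested. For LPS+Genipin and LPS the correlations were -0.49, 0.25 and -0.50 in heart and -0.48, 0.07 and -0.53 in liver. Alternatives were another floor or none, the mean of probes, omission of dim genes, cyclic loess, a 36-array fit, a replicate block and leaving out each array; fits of other probes were added after seeing the data.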

Additional observations from a re-analysis of the deposited data

Results flagged for a closer look

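The following members differed between tissues by the F test of the difference itself over 36 arrays, and all values are limma adjusted p. For LPS against Mock these were Psmb10 (2.72e-17), Psmb8 (1.93e-12), Psmb9 (1.17e-11), Psmb7 (5.58e-11), Psme1 (7.23e-06), Psmb5 (0.000923) and Psme2 (0.00212). The LPS difference of Psmb7 was -0.62 in heart, -0.45 in liver, -0.13 in kidney and 0.25 in brain, and that of Psme2 was 0.32 in kidney and -0.29 in liver.

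For LPS+Genipin against LPS they were Psmb7 (2.83e-12), Psmb10 (1.38e-12), Psmb5 (1.66e-06), Psmb9 (0.000144), Psmb8 (0.00709), Psme1 (0.0154) and Psme2 (0.0197). The difference of Psmb7 was 0.80 in heart, 0.53 in liver, 0.27 in kidney and -0.27 in brain. That of Psmb5 was 0.35 in liver, 0.32 in heart, 0.12 in kidney and -0.46 in brain.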

How the results depend on the processing

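The mean difference of the 5 inducible genes minus the 27 constitutive subunits kept its direction under each alternative run for LPS against Mock and, with 1 exception, for LPS+Genipin against LPS. Leaving out the dimmest 25% of genes, which in brain drops Psmb8, Psmb9 and Psme2 by construction, gave 0.0649 for LPS against Mock (0.44 with all) and the reversed value 0.0658 for LPS+Genipin against LPS (-0.37 with all). In kidney that omission, which there drops Psme2 and the constitutive Psma1, gave 2.39 for LPS against Mock, -1.39 for LPS+Genipin against LPS and 1.00 for LPS+Genipin against Mock. The mean of all probes gave 0.68 for LPS against Mock in liver, -0.70 for LPS+Genipin against LPS in heart and -0.50 for LPS+Genipin against Mock in liver.

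Counts of members called moved by over 1.5 times with the replicate block in heart for LPS+Genipin against LPS (10, against 16), with the 36-array fit for LPS+Genipin against Mock in brain (4, against 2) and heart (9, against 3), and with the mean of probes in heart for the same comparison (5). Without 1 array, LPS against Mock called 5 to 13 members in brain (5 without Mock replicate 3, 6 without Mock replicate 1 or LPS replicate 3), 8 to 13 in heart (fewest without Mock replicate 2) and 13 to 20 in liver (fewest without Mock replicate 1). LPS+Genipin against Mock called 0 to 4 in brain (0 without Mock replicate 3, 1 without Mock replicate 1, 4 without LPS+Genipin replicate 3) and 1 to 4 in heart (1 without LPS+Genipin replicate 2). Constitutive calls of LPS against Mock moved by over 1.5 times without Mock brain replicate 1 or 3 or LPS brain replicate 3 (2 higher, 0 lower), LPS brain replicate 2 (5 and 0) or LPS+Genipin brain replicate 3 (6 and 2); without heart replicate 1 (2 and 6) or 2 (0 and 4) of Mock, or 1 of LPS+Genipin (2 and 5); without any kidney array but Mock replicate 2; and without any Mock liver array or LPS liver replicate 2 or 3 (4 to 5 higher, 1 to 3 lower). In brain, where numbers paired LPS+Genipin and LPS, the replicate block called 10 members, against 9, and changed no named call. The cause was not tested.

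Signs of single members turned as follows. Psme1 in LPS+Genipin against Mock livers was 0.00633 with the mean of probes and 0.20 on the second probe. Second probes also turned Psme1 in LPS against Mock brains (-0.0526), Psmc6 in LPS+Genipin against LPS kidneys (-0.0712) and LPS against Mock livers (0.0459), and Psmd9 in LPS against Mock hearts (0.0672). Apart from fits without 1 array, 1775 of the other results for single members kept direction and side of the threshold, 78 lost a call and 28 gained one. Sample numbers of 3 per group and dim probes near the floor limit what could be called.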
